A study of Mus musculus with 27 samples.

Results

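The 10 genes described here encode the AMPA-type glutamate receptor and proteins bound to it: the pore subunits gria1, gria2, gria3 and gria4, the transmembrane regulatory proteins cacng2, cacng3 and cacng8, the auxiliary proteins cnih2 and shisa7, and the scaffold protein grip1. They were found by their symbols, written as the table lists them, among 26264 symbols, and all 10 passed the filter on low values. The question was whether 2 compounds, R55 and R33, change the transcript levels of these genes in the cortex. Both compounds are thiophene thioureas described as chaperones that stabilise retromer, the endosomal complex that returns cargo proteins to the cell surface and the Golgi.

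RNA was measured in a cortical block of each hemisphere of female 5xFAD mice aged 16 weeks, 24 h after 500 nL was microinjected into one hemisphere. The drug groups received R33 or R55 at 10 mM, and the vehicle group received the same DMSO and cyclodextrin solution without drug. All groups carry the 5xFAD transgenes, which model familial Alzheimer's disease and are driven by a neuronal promoter, and no wild-type mouse is compared here. Of 14 mice, 4 received vehicle, 5 received R33 and 5 received R55. The 2 blocks of a mouse were sequenced apart, which gave 27 libraries, since mouse AE of the R33 group had only its injected hemisphere in use.

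AMPA receptors carry most of the fast excitatory transmission in the brain. A receptor is a tetramer of the Gria subunits, and edited Gria2 makes the channel poorly permeable to calcium. The regulatory and auxiliary proteins set its gating and bring it to the surface and the synapse, and retromer with Snx27 and Vps35 is among the machineries that recycle it from endosomes.

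The coding ends of the pore subunits and of the 3 Cacng members are shown because they encode the tails by which scaffold proteins hold the receptor. Grip1 binds the tail of Gria2 and Gria3, and PDZ proteins such as PSD-95 bind the tails of the Cacng proteins. Each line gives the last 30 coding bases, 5′ to 3′ on the coding strand, of the canonical transcript in GENCODE vM39 on GRCm39, with the last 12 bases before the stop codon in capitals. The sequences lie on chromosomes 11, 3, X, 9, 15, 7 and 7 in the order shown.
gria1 (chr11:57218443-57218472, plus strand): gggatgcccttgggaGCCACAGGATTGtaa
gria2 (chr3:80596413-80596442, minus strand): gtatatggcatcgagAGTGTTAAAATTtag
gria3 (chrX:40761312-40761341, plus strand): gtgtatggaacagaaAGTGTTAAGATCtag
gria4 (chr9:4424209-4424238, minus strand): gtatatggaaccgaaAGTATTAAAATTtag
cacng2 (chr15:77879349-77879378, minus strand): acagccaaccgccggACCACGCCCGTAtga
cacng3 (chr7:122368040-122368069, plus strand): ccggccaacagacgtACCACGCCTGTCtga
cacng8 (chr7:3464092-3464121, plus strand): acgctcaacaggaaaACCACGCCCGTGtag

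In these canonical transcripts the ends of gria2, gria3 and gria4 resemble each other, while that of gria1 differs. The 3 Cacng ends are close variants of one another. Other transcripts of these genes, which can end differently, were not compared, so the likeness holds only for the transcripts shown. Over the aligned coding bases of these transcripts, gria2 and gria4 were the most alike pore subunits, with 73.1% identity over 2628 bases. Gria1 and gria3 were the least alike, with 65.1% over 2240 bases. The gria3 transcript has a shorter coding sequence, of 2304 bases, so its pairs cover a shorter stretch. The longest exact run shared by 2 pore subunits was 35 bases, between gria1 and gria2. The other members lie on chromosome 19 (cnih2, 5142891 to 5148672), chromosome 7 (shisa7, 4828550 to 4847895) and chromosome 10 (grip1, 119289735 to 119923171). An antisense RNA, A730060N03Rik, shares 536 exonic bases with cacng2, and Gm44257 shares 283 with cacng8. Libraries were made with a stranded kit, but the strand setting of the counting is not given in the sources used here.

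Values are FPKM, fragments counted on a gene scaled by its length and by the library's total. The whole fragments behind them were inferred from the values and came to 15932197 to 38077027 per library. Members rested on 223 fragments in the poorest library, for grip1, and on up to 21894, for gria2. One library stood apart: the injected block of R33 mouse AD had a median correlation of 0.9582 with the others. Summed markers of excitatory neurons ran from 1185 to 2066 FPKM, and slc17a7, the vesicular glutamate transporter of cortical excitatory neurons, from 312 to 708 FPKM.

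On this scale per length, cnih2 had the highest level of the 10, with a median of 159 FPKM over the 27 libraries, and was above every other member in all of them. Next came cacng3 with a median of 81.4, gria1 with 62.2, gria2 with 46.3, gria3 with 43.7, cacng8 with 37.4, shisa7 with 24.9, cacng2 with 21.8, gria4 with 16.9 and grip1 with 2.39 FPKM. Some neighbours in this order were not apart: gria2 exceeded gria3 in 13 of 27 libraries, shisa7 exceeded cacng2 in 18, and cacng3 exceeded gria1 in 19. In contrast, gria1 exceeded gria2 in 25, and gria4 exceeded grip1 in 27.

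The members also differed in how far they varied. The highest library exceeded the lowest 4.31-fold for gria1, 2.99-fold for cnih2, 2.87-fold for cacng8 and 2.80-fold for gria2, against 1.71-fold for cacng2 and 1.84-fold for cacng3. Of the summed FPKM of the pore subunits, gria1 took 43.4% ± 9.55 (SD, n = 4 mice) in vehicle mice, 42.7% ± 7.91 (n = 5) in R33 mice and 38.2% ± 5.16 (n = 5) in R55 mice. The share of gria2 was 24.5% ± 1.06, 24.9% ± 2.97 and 25.7% ± 2.29 in the same order, so the makeup of the pore transcripts overlapped between treatments.

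**Figure D1:**
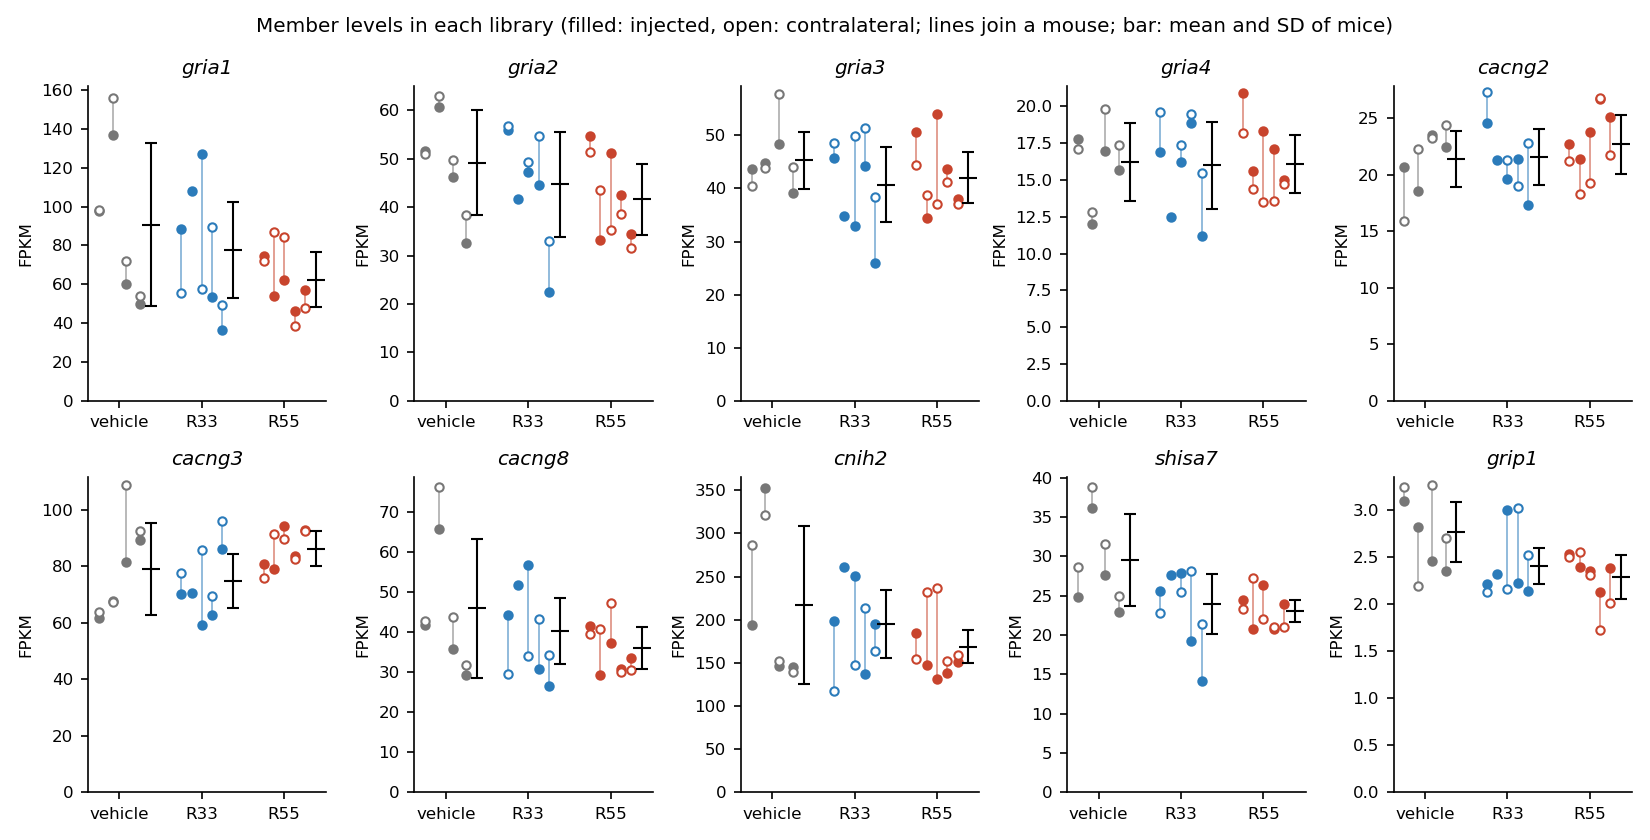
Level of each member in FPKM (y axis, from 0) by treatment (x axis). Filled points are injected and open points contralateral hemispheres, a line joins the blocks of one mouse, and the black bar is the mean and SD of the mice. The treatments overlap for all 10 members, and the highest gria1, cacng8, cnih2 and shisa7 points belong to 1 vehicle mouse.

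The first comparison was R55 against vehicle. No member was called at an adjusted p under 0.05 by limma over 12976 genes, of which 0.00771% were called. Shisa7 and grip1, 2 of the 10 members, were below an unadjusted p of 0.05, both with a lower level, against 8.45% of all genes in either direction and 3.74% lower. Limma voom on the recovered fragments called 0 members as well, again with 2 below an unadjusted p of 0.05, against 8.09% of all genes. The log2 difference was negative for 8 of the 10 members, with a median of -0.211, whereas 39.8% of all genes were negative and their median was 0.026. The 8 include gria4, whose change on this scale was -0.08%, and members whose levels varied together, so they are not 8 separate results. The mice of the 2 treatments overlapped for all 10 members, while 2.41% of all genes had treatments that did not overlap.

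Among the pore subunits, gria1, which enters synapses during long-term potentiation, had the widest spread. Vehicle mice J, M, L and AH had gria1 at 97.8, 137, 60.1 and 49.9 FPKM in the injected and 98.3, 156, 71.8 and 54.0 FPKM in the contralateral block. R55 mice P, AA, Q, R and AB had 74.4, 54.0, 62.2, 46.4 and 57.0 FPKM in the injected and 72.0, 86.7, 84.3, 38.4 and 48.0 FPKM in the contralateral block. Vehicle mice J and M lay above all R55 libraries, and mice L and AH lay inside their range.

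The mean over mice was 90.6 ± 41.9 FPKM (SD, n = 4) with vehicle and 62.3 ± 14.1 FPKM (n = 5) with R55. The log2 difference of gria1 was -0.46 (SE 0.240, 95% interval -0.96 to 0.03, limma adjusted p = 0.589). It was -0.20 without vehicle mouse M and -0.69 without vehicle mouse AH, so the size of the estimate rested on which vehicle mice entered. For gria2, the subunit that limits calcium entry, the difference was -0.23 (SE 0.156, adjusted p = 0.640), and it shrank to -0.06 after a correction for the trend of level on gene length. The other pore subunits were closer to vehicle: gria3 differed by -0.11 (SE 0.110), with mouse means of 45.3 ± 5.32 and 42.0 ± 4.80 FPKM, and gria4 had 16.2 ± 2.65 and 16.1 ± 1.95 FPKM.

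Cacng8, the regulatory protein best known from hippocampal receptors, followed gria1. Vehicle mice J, M, L and AH had cacng8 at 41.9, 65.8, 35.8 and 29.4 FPKM in the injected and 42.8, 76.2, 43.9 and 31.9 FPKM in the contralateral block. R55 mice P, AA, Q, R and AB had 41.5, 29.4, 37.4, 30.9 and 33.5 FPKM and, contralaterally, 39.7, 40.8, 47.2, 30 and 30.6 FPKM. For this gene mouse M alone stood above the R55 range in both blocks. The log2 difference was -0.29 (SE 0.165, adjusted p = 0.607). It was -0.06 without mouse M, but -0.45 without mouse AH.

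The 2 other Cacng members did not share this direction. Cacng2, or stargazin, the founding member of the family, differed by 0.08 (SE 0.0881, adjusted p = 0.747). Cacng3, its close cortical relative, differed by 0.14 (SE 0.0971, adjusted p = 0.637), with mouse means of 79.2 ± 16.3 FPKM with vehicle and 86.3 ± 6.10 FPKM with R55.

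Cnih2, which slows receptor closing and aids export from the endoplasmic reticulum, spread most in the vehicle group. Vehicle mice J, M, L and AH had cnih2 at 194, 353, 147 and 145 FPKM in the injected and 286, 321, 152 and 139 FPKM in the contralateral block. R55 mice P, AA, Q, R and AB had 185, 148, 131, 138 and 151 FPKM and, contralaterally, 155, 232, 237, 152 and 159 FPKM. Vehicle mice J and M were high, and L and AH lay at the lower end of the R55 range. The log2 difference was -0.29 (SE 0.192, adjusted p = 0.634). It was -0.05 without mouse M, but -0.46 without mouse AH and -0.43 without mouse L.

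Shisa7, an auxiliary protein of AMPA receptors that is also known to bind GABA-A receptors, had the smallest p of the members. Vehicle mice J, M, L and AH had shisa7 at 24.9, 36.2, 27.6 and 22.9 FPKM in the injected and 28.7, 38.8, 31.6 and 25 FPKM in the contralateral block. R55 mice P, AA, Q, R and AB had 24.5, 20.8, 26.4, 20.8 and 23.9 FPKM and, contralaterally, 23.3, 27.2, 22, 21 and 21 FPKM. The R55 libraries were tightly grouped, and vehicle mouse AH lay inside their range. The log2 difference was -0.32 (SE 0.111, 95% interval -0.55 to -0.10, unadjusted p = 0.00691, adjusted p = 0.545 by limma). Without mouse M it was -0.20 (unadjusted p = 0.0735).

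Grip1, the scaffold that links Gria2 and Gria3 to endosomal motors and the synapse, was the member with the lowest level. Vehicle mice J, M, L and AH had grip1 at 3.10, 2.82, 2.46 and 2.35 FPKM in the injected and 3.25, 2.19, 3.27 and 2.70 FPKM in the contralateral block. R55 mice P, AA, Q, R and AB had 2.53, 2.40, 2.35, 2.13 and 2.39 FPKM and, contralaterally, 2.50, 2.56, 2.31, 1.73 and 2.01 FPKM. The mouse means ran from 2.51 to 3.17 FPKM with vehicle and from 1.93 to 2.51 FPKM with R55, so the treatments met at 1 mouse each, M and P. The log2 difference was -0.19 (SE 0.0702, 95% interval -0.34 to -0.05, unadjusted p = 0.0110, adjusted p = 0.552 by limma), and it was -0.23 without mouse M. Without vehicle mouse J, which had the highest grip1, it was -0.14 (unadjusted p = 0.0722).

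The libraries of 1 mouse share an animal but count as separate samples, and with 1 value per mouse the unadjusted p was 0.0251 for shisa7 and 0.0246 for grip1. Mice labelled with 1 letter (3 per treatment) and with 2 letters (1 vehicle, 2 R33 and 2 R55 mice) form separate series. Within the first series the R55 difference in mean log2 level was -0.68 for gria1, -0.42 for shisa7 and -0.24 for grip1. Within the second, against mouse AH alone, it was 0.20, -0.05 and -0.08.

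**Figure D2:**
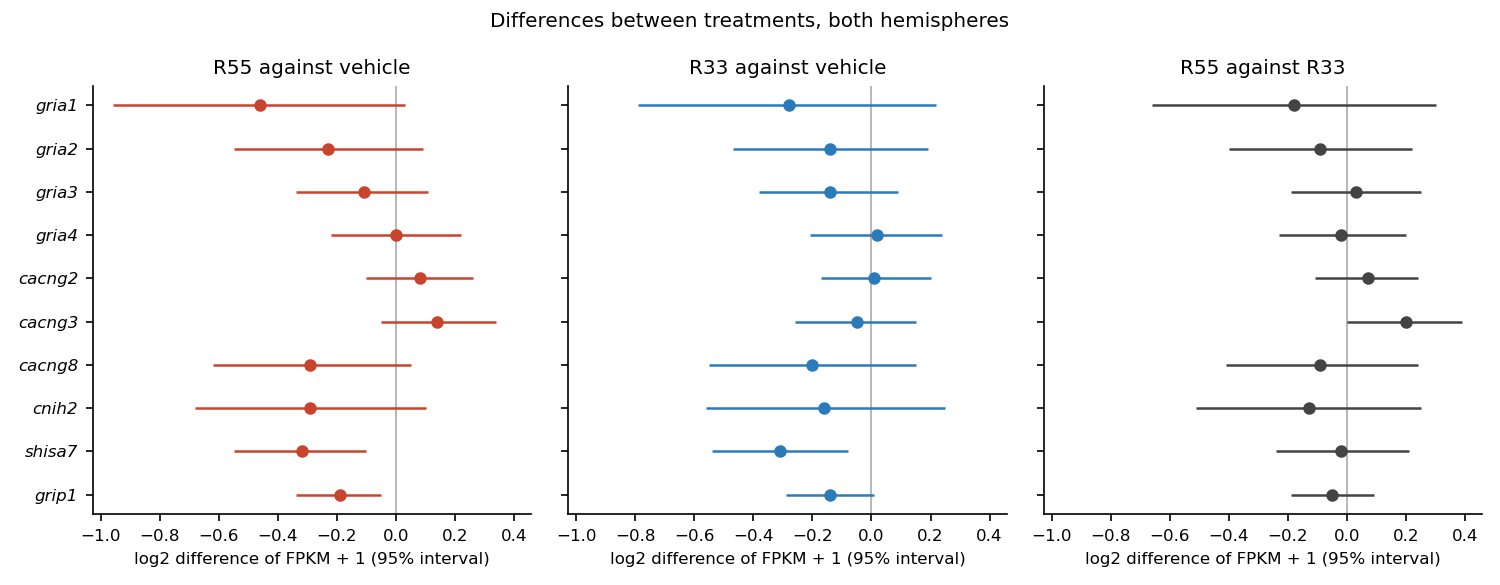
Log2 difference of FPKM + 1 (x axis) for each member (y axis) in 3 comparisons, with 95% intervals from limma. The intervals of shisa7 and grip1 lie below 0 for R55 against vehicle, and that of shisa7 does for R33 against vehicle. For R55 against R33 the interval of cacng3 lies just above 0. The fit counts both blocks of a mouse as separate samples, so the intervals do not allow for the shared animal.

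The variable members moved with a marker list for the hippocampus, a structure beneath the cortical block. The list held 7 genes, among them prox1, c1ql2 and dsp of dentate granule cells and fibcd1 and spink8 of CA1 pyramidal cells, and 5 of the 7 passed the filter. Its summed level ran from 5.32 to 101 FPKM (median 34.7) in vehicle, from 5.75 to 70.0 FPKM (median 18.7) in R33 and from 4.60 to 59.4 FPKM (median 14.2) in R55 libraries. It was highest in vehicle mouse M, at 101 FPKM in the injected and 83.9 FPKM in the contralateral block, and in vehicle mouse J it was 63.3 and 58.3 FPKM. Vehicle mice L and AH had 11.1 and 11 FPKM in the injected and 5.32 and 10.4 FPKM in the contralateral block. Spink8 was at 0 in 1 library and under 1 FPKM in 10 of 27, with a maximum of 31.4 FPKM, and dsp was under 1 FPKM in 20.

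Over the 27 libraries, the Pearson correlation of log2 level with the log2 sum of this list was 0.91 for gria1 (Spearman 0.90), 0.81 for cacng8, 0.81 for cnih2 and 0.60 for shisa7. It was 0.53 for gria2, -0.06 for gria3, -0.19 for gria4 and 0.41 for grip1, and negative for cacng2 (-0.50) and cacng3 (-0.62). These are descriptions, since libraries of 1 mouse share an animal. Over the means of the 14 mice the value for gria1 was 0.93, without the 2 mice farthest from the median it was 0.88, and over deviations from the 6 group means it was 0.93.

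All 5 tested genes of the list had a negative R55 difference, as did 39.8% of all genes. None of the 5 was below an unadjusted p of 0.05, against 8.45% of all genes. With the log2 sum as a covariate, an alternative chosen after the data had been seen, the R55 difference was -0.24 (SE 0.102, unadjusted p = 0.0288, adjusted p = 0.644 by limma) for gria1, where it had been -0.46. It was -0.15 for cacng8, -0.13 for cnih2, -0.25 for shisa7 and -0.17 for grip1. Thus the estimate for gria1 was smaller and its standard error too, while that for grip1 was close to the value without the covariate. With the covariate, 3 members were below an unadjusted p of 0.05, against 7.49% of all genes. The fit without it had 2, against 8.45% of all genes. In these bulk samples, fewer cells of a type and less RNA per cell cannot be told apart.

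**Figure D3:**
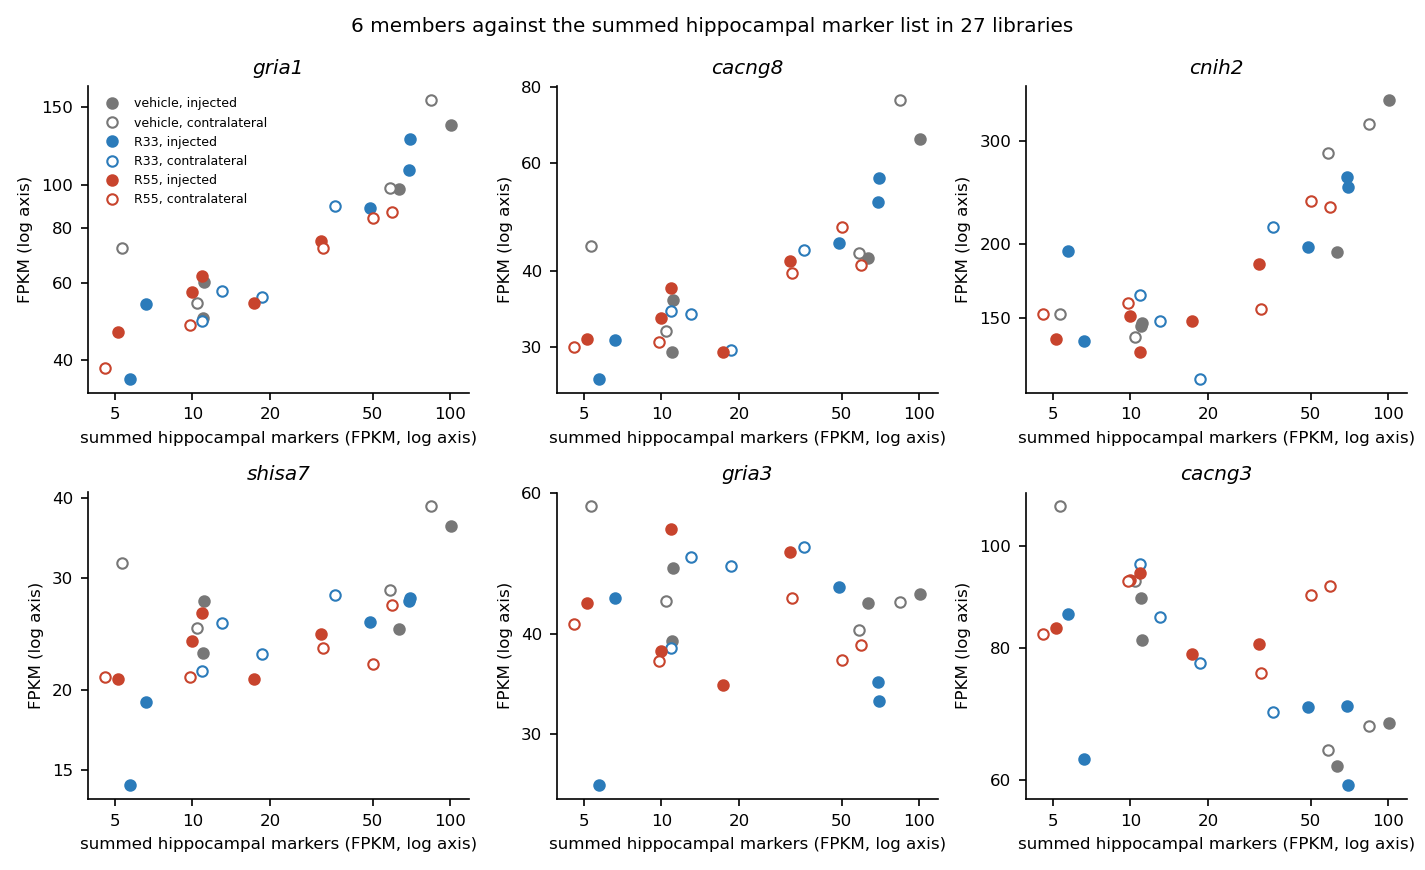
Level of 6 members (y axis, FPKM, log axis) against the summed level of 7 hippocampal markers (x axis, FPKM, log axis) in 27 libraries, coloured by treatment, filled for injected and open for contralateral blocks. Libraries with a higher sum had higher gria1 (r = 0.91), cacng8 and cnih2 (0.81 each) and lower cacng3 (-0.62), and gria3 had no clear slope (-0.06).

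**Figure D4:**
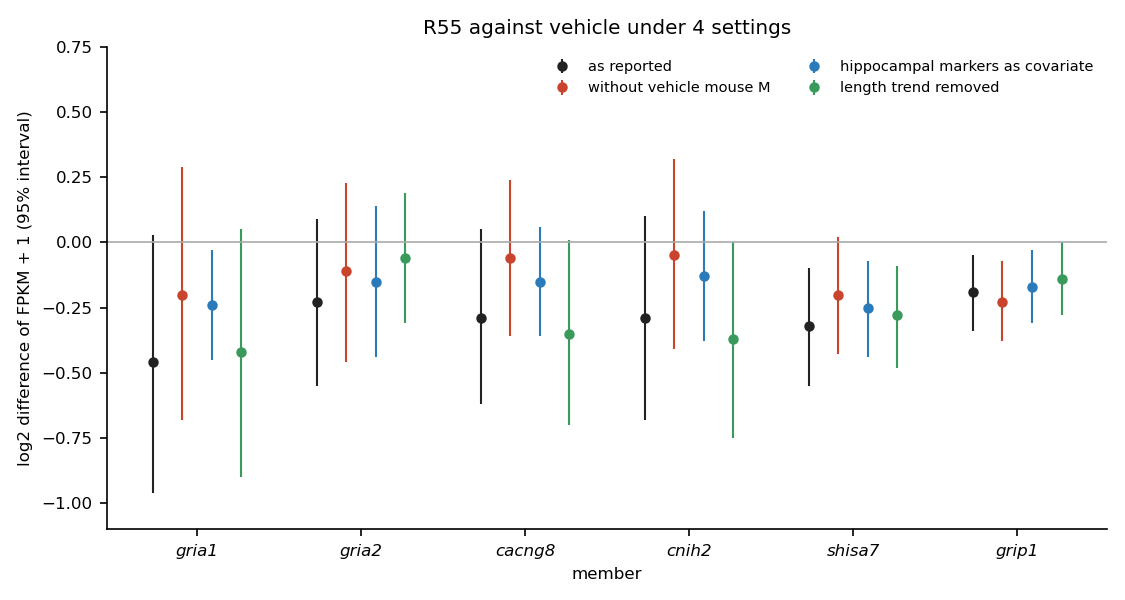
Log2 difference of R55 against vehicle (y axis, 95% interval) for 6 members (x axis) as reported, without vehicle mouse M, with the hippocampal marker sum as a covariate, and with the length trend removed. The estimates for gria1, cacng8 and cnih2 move most, and grip1 stays between -0.23 and -0.14.

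The second comparison, R33 against vehicle, uses the same vehicle mice and is therefore not independent of the first. Limma called 0 members, as it did 0% of all genes, and shisa7 was the 1 member below an unadjusted p of 0.05, against 5.87% of all genes and 2.68% in the lower direction. Voom also called 0, with 2 below that unadjusted p, against 5.76% of all genes. The mice overlapped for all 10 members, and 0.771% of all genes did not overlap.

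For gria1, R33 mice K, O, N and AD had 88.6, 127, 53.6 and 36.3 FPKM in the injected and 55.7, 57.4, 89.5 and 49.2 FPKM in the contralateral block, and mouse AE had 108 FPKM in its injected block. Within mouse O the 2 blocks thus differed more than the treatments did on average, and its hippocampal marker sum was 70.0 FPKM in the injected and 13.0 FPKM in the contralateral block. The log2 difference from vehicle was -0.28 (SE 0.246, adjusted p = 0.854).

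R33 mice K, O, N and AD had shisa7 at 25.6, 27.9, 19.2 and 14.2 FPKM in the injected and 22.8, 25.5, 28.2 and 21.4 FPKM in the contralateral block, with 27.6 FPKM in mouse AE. The lowest of these was the AD block that stood apart from the other libraries. The log2 difference was -0.31 (SE 0.114, unadjusted p = 0.0113, adjusted p = 0.834 by limma), and -0.20 without mouse AD (unadjusted p = 0.0584).

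The remaining R33 differences were -0.14 (SE 0.160) for gria2, -0.20 (SE 0.169) for cacng8, -0.16 (SE 0.196) for cnih2, -0.05 (SE 0.0996) for cacng3 and -0.14 (SE 0.0720) for grip1. Leaving out vehicle mouse M turned those of cacng8 and cnih2 to 0.03 and 0.09. Leaving out mouse AD turned that of gria2 to 0.05.

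The third comparison set the 2 thiophene thioureas side by side at the same concentration, volume and time. Limma with Benjamini-Hochberg adjustment called 0 of 10 members (0% of all genes), and cacng3 was the 1 member below an unadjusted p of 0.05, against 1.15% of all genes. Voom gave the same counts of 0 and 1. No member separated the R55 from the R33 mice, and 0.10% of all genes did. Cacng3 averaged 86.3 ± 6.10 FPKM (SD, n = 5) with R55 and 74.9 ± 9.56 FPKM (n = 5) with R33, a log2 difference of 0.20 (SE 0.0942, unadjusted p = 0.0448, adjusted p = 1.0 by limma). With the mouse as a random effect the unadjusted p of cacng3 was 0.0640, and with 1 value per mouse it was 0.0847. For gria1 the difference was -0.18 with a 95% interval of -0.66 to 0.30, for shisa7 -0.02 with an interval of -0.24 to 0.21, and for grip1 -0.05 with an interval of -0.19 to 0.09. These intervals are wide for gria1 and leave differences of either sign possible, so the compounds are not shown to act alike on it.

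The fourth comparison set injected against contralateral blocks over all treatments. Limma called 0 of 10 members (0% of all genes), with 0 below an unadjusted p of 0.05, against 3.47% of all genes. Voom gave 0 and 0, with 3.75% of all genes below that unadjusted p. The log2 difference, injected minus contralateral, lay between -0.12 and 0.02. For gria1 it was 0.01 (SE 0.195, 95% interval -0.39 to 0.41), and with the mouse as a replicate block it was -0.04, so its direction is not settled. The difference was -0.12 (SE 0.0790) for cacng3, and with the mouse as a replicate block it was the 1 member below an unadjusted p of 0.05, with an adjusted p of 0.790, and 6.13% of all genes were below that unadjusted p in the same fit. Among 13 mice with both blocks, cacng3 was lower in the injected block in 8 and higher in 4, and 1 mouse had a log2 difference of 0.0.

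The change with drug was also compared between hemispheres. For R55 the interaction had 0 members called and 0 below an unadjusted p of 0.05 (0% and 1.84% of all genes), and for R33 likewise 0 and 0 (0% and 0.378%). The largest R55 value was that of gria4, which forms fast receptors in interneurons: 0.30 (SE 0.200, adjusted p = 0.999). The injected block of the 5 R55 mice exceeded the contralateral one by 0.02 to 0.41 on the log2 scale, and with the mouse as a replicate block the unadjusted p was 0.0123 and the adjusted p 0.806, with 5.93% of all genes below an unadjusted p of 0.05. For R33, gria1 had an interaction of 0.43 (SE 0.503, adjusted p = 1.0).

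Across the 27 libraries some members varied together. The correlation of log2 level was 0.95 between gria1 and cacng8, 0.81 between gria1 and cnih2, 0.81 between gria1 and shisa7 and 0.83 between cacng8 and cnih2. Shisa7 also moved with cacng8 (0.82) and less with cnih2 (0.55). Gria2 moved with gria3 (0.74), and gria3 with gria4 (0.71). Gria2 also moved with shisa7 (0.76), gria1 (0.67) and cacng8 (0.62), more than with gria4 (0.45), so the pore subunits did not form a separate group. Cacng3 ran against gria1 (-0.59), and cacng2 ran against cnih2 (-0.67). Grip1 had no correlation above 0.53 with any member.

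**Figure D5:**
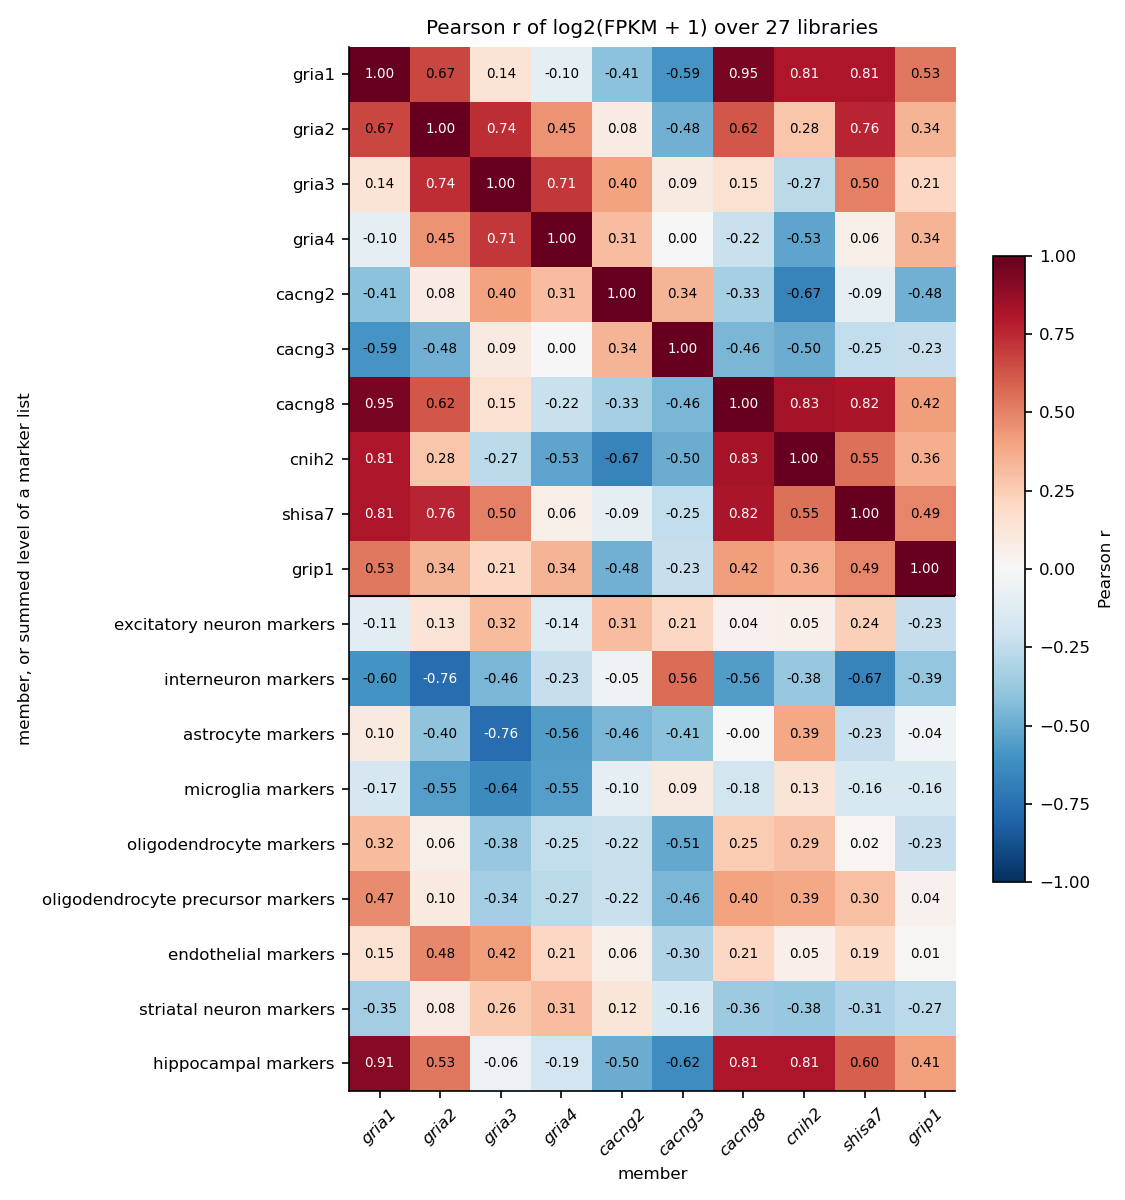
Pearson correlation of log2 level over 27 libraries, between members (upper block) and between members and the log2 sum of each marker list (lower block), with the value printed in each cell. The darkest red cells off the diagonal join gria1 with cacng8 (0.95) and with the hippocampal markers (0.91), and the darkest blue ones join gria3 with astrocyte markers and gria2 with interneuron markers, both at -0.76.

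Other marker lists moved with other members. The summed interneuron markers correlated with gria2 at -0.76 and with cacng3 at 0.56, and the sum ranged from 543 to 741 FPKM in vehicle, 621 to 903 FPKM in R33 and 599.9 to 835 FPKM in R55 libraries. The summed astrocyte markers correlated with gria3 at -0.76 and gria4 at -0.56, and the microglia markers with gria3 at -0.64. In R55 against vehicle 6 of the 7 interneuron markers had a positive difference, vip 0.35 and pvalb 0.47 among them (adjusted p = 0.552 each), and in R33 against vehicle all 7 did. All 5 astrocyte markers had a positive R55 difference as well, with aldh1l1 at 0.38 (unadjusted p = 0.0124, limma adjusted p = 0.552), as did 4 of 5 microglia and all 5 oligodendrocyte markers. Lower with R55 were 3 of 5 excitatory neuron, 3 of 4 oligodendrocyte precursor, 3 of 4 endothelial and 4 of 5 striatal neuron markers. Of all genes, 39.8% had a negative difference for R55 and 42.5% for R33, so most were positive. All 7 interneuron, 5 astrocyte and 5 microglia markers were above 1 FPKM in every library. The part of these lists in the differences of the members was not tested.

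The genes nearest to each member by this correlation, up to 3 for each, are given as a description. Nearest to gria1 were scn3b (0.977), a sodium channel beta subunit, gabra5 (0.969), a GABA-A receptor subunit known for its hippocampal expression, and drd5 (0.964), a dopamine receptor. Nearest to cacng8 were matn2 (0.957), gria1 (0.952) and wipf3 (0.940), and nearest to cnih2 were arpc5 (0.940), ddn (0.939), the dendritic protein dendrin, and klk8 (0.934), the protease neuropsin. Nearest to gria2 were slitrk3 (0.968) and nckap1 (0.953), and nearest to gria3 were slitrk1 (0.939), flrt2 (0.935) and lrrc4c (0.914), several of them synaptic adhesion proteins.

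For gria4 the nearest were prkacb (0.894), dnajc6 (0.867) and galnt13 (0.858). For cacng2 they were zmynd8 (0.866), zbtb7a (0.864) and atp2b2 (0.860), and for cacng3 osbpl10 (0.908), slc4a3 (0.908) and rangap1 (0.873). Shisa7 lay nearest to zcchc14 (0.909), sh3rf1 (0.895) and dscaml1 (0.894). Grip1 lay nearest to fstl5 (0.866), reln (0.811), the reelin of cortical interneurons and Cajal-Retzius cells, and hap1 (0.809).

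The rest of the receptor's pathway was read from lists of known partners. Of 25 other auxiliary and assembly proteins, 0 were called in R55 against vehicle, 13 were lower and 12 higher, and the median log2 difference was -0.03. Below an unadjusted p of 0.05 were prrt1, or SynDIG4, at -0.20, abhd6, a hydrolase that restrains receptor delivery, at 0.11, and olfm2 at 0.32, and the next was frrs1l, an assembly factor, at -0.25. Their adjusted p-values by limma were 0.552, 0.557, 0.586 and 0.610. Of all genes, 8.45% were below that unadjusted p and 39.8% were lower.

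Of 18 trafficking and anchoring proteins, 0 were called and the median was 0.02. Arc, the activity-regulated protein that promotes receptor endocytosis, differed by 0.76 (SE 0.313, adjusted p = 0.557), and myo5b, a motor that carries recycling endosomes into spines, by -0.48 (SE 0.194, adjusted p = 0.557). Dlg1 differed by 0.13 and napa by 0.12. Vps35, the retromer subunit, differed by 0.03 (95% interval -0.10 to 0.16), and Snx27, its cargo adaptor, by -0.03 (95% interval -0.14 to 0.09).

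The other ionotropic glutamate receptors gave a like picture. All 6 tested NMDA receptor subunits had a negative R55 difference (median -0.10), 0 were called, and grin2b at -0.62 (SE 0.177, adjusted p = 0.327) and grin2a at -0.37 (SE 0.141, adjusted p = 0.552) were below an unadjusted p of 0.05. The next were grin3a at -0.14 and grin1, the obligatory subunit, at -0.06. Of 7 kainate receptor subunits and Neto proteins, 6 were lower (median -0.13) and 0 were called. Grik2 at -0.23 was below an unadjusted p of 0.05, followed by neto1 at -0.23, grik4 at -0.19 and grik3 at -0.13. Over all genes, 39.8% had a negative R55 difference and 8.45% were below that unadjusted p. In R33 against vehicle, limma likewise called 0 genes in each of these 4 lists, with medians of -0.05 for the auxiliary, 0.02 for the trafficking, -0.13 for the NMDA and -0.14 for the kainate list. Of these genes 1 auxiliary, 0 trafficking, 1 NMDA and 1 kainate gene were below an unadjusted p of 0.05, against 5.87% of all genes.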

How the data were processed

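The authors made stranded mRNA libraries, mapped the read pairs with HISAT2 to the GRCm39 mouse genome, and deposited 1 FPKM value per library and gene symbol. The counting tool and its annotation are not given in the sources used here. The deposited file covers 32 libraries, of which 27 were used and 5 were not used here. Repeated header lines (32) were skipped. Whole fragments were inferred by choosing for each gene a length at which its values came to whole fragments. That 100.0% of values were multiples of 1 fragment within 0.01 followed from this choice and is not a check. The fragments of each library summed to the total inferred for it within 7.2e-07 of that total. For all members the recovered length was below that of all annotated exons together, for example 11279 against 27443 bases for gria2.

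Limma 3.58.1 (R 4.3.3) was fitted to log2(FPKM + 1) of 12976 genes (mean over libraries no lower than 1 FPKM), with treatment and hemisphere as additive factors over all 27 libraries, an intensity trend and Benjamini-Hochberg adjustment over all genes, with calls at an adjusted p under 0.05. Differences are on the log2(FPKM + 1) scale, which understates the change of low genes such as grip1. P-values are two-sided. The fit was tested on simulated data, in which each library was drawn independently and no mouse effect was set. That test therefore does not bear on how the fit treats libraries that share a mouse. Voom on the recovered fragments was an alternative.

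Hemispheres pair by the mouse that the labels name. The correlation of a mouse's 2 deviations from the group means averaged 0.394 over 13 mice, from -0.079 to 0.648. The members and lists were chosen with earlier results of these data known. Named were all members, up to 4 genes of each other list with the smallest unadjusted p in R55 against vehicle, Vps35 and Snx27, and the 3 genes nearest to each member, of which 1 is not reported here. The length trend was removed by lowess with a span of 0.3. Gene positions and sequences came from GENCODE vM39. No correlation was tested. Python 3.11.15 was used for tables and figures.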

Additional observations from a re-analysis of the deposited data

Results flagged for a closer look

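In each treatment and hemisphere with 4 or 5 mice, the highest and lowest library were set against the others by Dixon's criterion, over 60 groups of values, and chance alone picks out about 1 in 20 groups. Gria4 in the contralateral block of R55 mouse P was at 18.2 FPKM, and the nearest of the other 4 was at 14.7 FPKM, a gap of 0.740 of the range against a critical value of 0.71. Grip1 in the injected block of R33 mouse O was at 3.0 FPKM with the nearest at 2.32 FPKM, a gap of 0.798 of the range.

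The level of gria4 in the injected block exceeded that in the contralateral block in all 5 R55 mice, by a mean of 0.21 on the log2 scale. It was lower in all 4 R33 mice with both blocks, with differences of -0.05 to -0.43. The value of -0.43 was that of mouse AD, whose injected block stood apart from the other libraries. In vehicle mice J, M, L and AH the same difference was 0.06, -0.08, -0.21 and -0.14, so 3 of 4 had the direction of the R33 mice. The difference between R55 and R33 was not tested, and the share of all genes with such a pattern was not counted.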

How the results depend on the processing

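No member was called in any of the 144 fits. Members below an unadjusted p of 0.05 numbered, for R55 against vehicle, 0 with injected blocks alone and 1 (without mouse J) to 7 (without mouse AH) when 1 mouse was left out. The share of all genes below that p in these fits was 1.09%, 12.9% and 12.1%, and 4.69% without mouse M. For R33 against vehicle they numbered 2 with median-of-ratios size factors (5.88% of all genes), 2 with voom (5.76%) and 0 with injected blocks alone (1.84%). When 1 mouse was left out they ran from 0 (without AD, 3.78%) to 3 (without AH, 7.13%). For R55 against R33 they numbered 0 with median-of-ratios size factors (1.21% of all genes), with the mouse as a random effect (0.424%) and with 1 value per mouse (0.617%). They also numbered 0 with contralateral blocks alone (2.03%) and with the length trend removed (1.53%). When 1 mouse was left out they ran from 0 (without K, 1.05%) to 2 (without AD, 10.3%). With the mouse as a replicate block there was 1 for injected against contralateral (6.13% of all genes) and 2 in vehicle mice alone (4.12%). For the R55 difference between hemispheres there was 1 (5.93%).

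Of 578 alternative values of 23 selected member differences, 556 kept their direction and 22 reversed it, 13 of these on leaving out 1 mouse. Not every alternative could move an estimate, so the 556 do not measure robustness. For example, leaving out an R33 mouse kept gria1 at -0.464 in R55 against vehicle. Gria4, whose difference in R55 against vehicle was near zero, was not among the 23 for that comparison. For R33 against vehicle, cacng3 was 0.006 in contralateral blocks and cnih2 0.056 in injected blocks. For R55 against R33, gria1 was 0.034 in contralateral blocks, and shisa7 was 0.056 in injected blocks and 0.023 with the hippocampal covariate. For injected against contralateral, gria1 was -0.005 with the mouse as a random effect, -0.0 with the length trend removed, -0.036 with the replicate block and -0.141 with it in vehicle mice. On leaving out 1 mouse, the R33 difference ran from -0.287 to 0.046 for gria2, -0.154 to 0.037 for cacng3, -0.368 to 0.026 for cacng8 and -0.327 to 0.087 for cnih2. Likewise R55 against R33 ran from -0.125 to 0.039 for shisa7, and injected against contralateral from -0.07 to 0.073 for gria1. The cause was not tested. Without R33 mouse AD, 50 of all genes were called in R55 against vehicle, 0 of them members.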
